A study of Homo sapiens with 9 samples.

Results

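The genes described here are those of the microRNA machinery, the proteins that make microRNAs and carry out silencing by them. Of 10 genes listed for this role, 4 had a row with their symbol among the 14812 genes of the array table: TNRC6A, TNRC6B, TNRC6C and XPO5. The Argonaute genes AGO1, AGO2, AGO3 and AGO4 and the nucleases DICER1 and DROSHA had no named row under current or older symbols and were not analysed here. A row named for DICER1-AS1, an antisense RNA, does not measure DICER1 and was not used in its place. Each of the 4 genes had 1 row, so no choice between rows was needed.

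The cells were WM266-4, an established human line grown from a melanoma metastasis, and carried GFP in all groups. They were lipofected with a mimic of miR-199a-3p at 0.5 nM (3 arrays), with the same mimic at 0.25 nM (3 arrays), or with a control microRNA at 0.5 nM (3 arrays), as biological triplicates, and RNA was taken 48 h later. No untransfected group was analysed here, and the control was given at 0.5 nM alone, so at 0.25 nM the mimic and the total amount of small RNA changed together. The comparisons ask whether transcripts of the silencing machinery differ between cells given the mimic and cells given the control microRNA, and between the doses.

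In the canonical pathway DROSHA cuts a primary transcript in the nucleus, exportin-5 (XPO5) carries the resulting hairpin to the cytoplasm, DICER1 trims it to a duplex, and an Argonaute protein keeps 1 strand. Argonaute then binds a TNRC6 protein (also called GW182), a long scaffold rich in glycine-tryptophan repeats, which recruits the PAN2-PAN3 and CCR4-NOT deadenylases and so starts the decay of the target mRNA. A synthetic mimic enters as a finished duplex, so it needs Argonaute and TNRC6 but not the nuclear steps or export.

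The small RNA at the centre of the experiment is shown with its partner arm, since the seed (bases 2 to 8 from the 5′ end, in capitals) is what Argonaute uses to find targets. The sequences are those of RefSeq on GRCh38.p14.
hsa-miR-199a-3p: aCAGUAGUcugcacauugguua
hsa-miR-199b-3p: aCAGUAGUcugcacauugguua
hsa-miR-199a-5p: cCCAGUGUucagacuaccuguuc
The same 22 bases of miR-199a-3p are listed under MIR199A1 and MIR199A2, and miR-199b-3p from MIR199B has the same sequence and seed, CAGUAGU. The opposite arm, miR-199a-5p, has another seed, CCAGUGU, and per the labels was not transfected. The sequence of the control microRNA is not given in the sources used here.

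Values are log2 array intensities, and all levels below are given after each array was shifted to one median, because the deposited arrays differed in median by group. The shift added was 0.08 for each control array, between -0.08 and -0.06 for the 0.25 nM arrays and between -0.01 and -4e-04 for the 0.5 nM arrays. Before the results, a property of the values has to be stated. Between 42% and 48.6% of rows held exactly equal deposited values on all 3 arrays of a group, and 0 values were equal between arrays of different groups. The spread within a group is therefore a poor guide to the error of a difference between groups. For the same reason, groups of arrays that do not overlap do not by themselves set a gene apart. Each comparison is given by the 9-array limma model, with its error from the spread within groups. Beside it, a group-level limma test of both doses against control counts each group as 1 unit. The error of that test starts from the difference between the doses and is moderated over genes of like level. With 35.9 prior degrees of freedom it rests mostly on other genes. The group-level SE of a gene is thus not a measure of its own difference between the doses. Labels call the replicates biological triplicates. In the 9-array model most genes passed at an adjusted p of 0.05, so each member is read against the share of all genes that passed. Of 8 melanocyte lineage markers 7 were measured and all 7 exceeded the median gene's level, while 4 of 4 keratinocyte markers and the endothelial and fibroblast genes measured (VWF and LUM) lay below it. CD68, which is not specific to leukocytes, was the 1 of 4 leukocyte markers measured and lay above it. The summed level of the melanocyte markers ran from 75.05 to 75.37 over arrays of the 0.5 nM group and from 74.73 to 74.74 over those of the 0.25 nM group, against 74.88 to 74.97 in control. That of the dim keratinocyte markers ran from 15.94 to 15.99, from 17.78 to 17.85 and from 17.12 to 17.46 in the same groups, and its part in the results below was not tested.

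TNRC6A, the founding member of the GW182 family, was higher in mimic cells than in control cells at both doses. Its level was 7.81, 7.79 and 7.78 on the 3 arrays of the 0.5 nM mimic and 7.45, 7.43 and 7.43 on those of the 0.25 nM mimic, against 7.20 on each of the 3 control arrays. The order of the levels was 0.5 nM, 0.25 nM and control, with no overlap of the groups. The share of all genes whose groups do not overlap was not computed. Against control, TNRC6A rose by 0.60 ± 0.011 (SE, n = 3 each) on the log2 scale at 0.5 nM, a 1.51-fold difference (limma adjusted p = 6.95e-09). At 0.25 nM it rose by 0.24 ± 0.011 (SE, n = 3 each), or 1.18-fold (limma adjusted p = 7.06e-07), and with the values as deposited by 0.40 (limma adjusted p = 4.85e-10). Among all genes, 3.9% lay as high or higher at 0.5 nM and 17.3% at 0.25 nM. The difference between the doses, 0.35 ± 0.011 (SE, n = 3 each), also passed (limma adjusted p = 9.19e-08). The deposited values tied exactly on all control arrays and on all 0.25 nM arrays, and those at 0.5 nM spread by an SD of 0.011. Tested at the level of groups, the mean change of both doses was 0.42 ± 0.18 (SE), with a 95% interval from 0.056 to 0.781. In bulk RNA a change per cell and a change in the mix of cells cannot be told apart. The change did not pass over all genes (unadjusted p = 0.0247, adjusted p = 0.622, both by limma).

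TNRC6C, a paralogue with the same scaffold role, was also higher at both doses. Its level was 7.55, 7.54 and 7.53 at 0.5 nM and 7.57, 7.55 and 7.55 at 0.25 nM, against 7.33, 7.37 and 7.37 in control. The deposited values tied exactly on all 0.5 nM arrays and on all 0.25 nM arrays, so the spread within these groups comes from the shift alone. All 6 mimic arrays lay above all 3 control arrays, with no share of all genes computed for such a separation. The change was 0.18 ± 0.013 (SE, n = 3 each; limma adjusted p = 1.13e-05) at 0.5 nM, or 1.14-fold. At 0.25 nM it was 0.21 ± 0.013 (SE, n = 3 each; limma adjusted p = 6.20e-06), or 1.15-fold. The doses differed by -0.02 (95% interval -0.052 to 0.011), which did not pass (limma adjusted p = 0.220). With the values as deposited the changes were 0.27 and 0.36 (limma adjusted p = 4.87e-07 and 8.97e-08), and the doses differed by -0.09 and passed (limma adjusted p = 0.000359). These changes were of a common size: 46.2% of all genes at 0.5 nM and 44.1% at 0.25 nM moved as far in either direction. The group-level change of 0.19 ± 0.17 (SE) did not pass (limma adjusted p = 0.956).

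TNRC6B, the third paralogue, did not share this pattern. Its level was 8.25, 8.32 and 8.20 at 0.5 nM and 8.08, 8.04 and 8.06 at 0.25 nM, against 8.30, 8.16 and 8.16 in control. The 0.5 nM arrays overlapped the control arrays. The 0.25 nM arrays lay below both groups, and the share of all genes that separate so was not computed. At 0.5 nM the change was 0.05, with a 95% interval from -0.060 to 0.155, and did not pass (limma adjusted p = 0.400), whereas with the values as deposited it was 0.14 and passed (limma adjusted p = 0.0369). At 0.25 nM it was -0.15 ± 0.045 (SE, n = 3 each; limma adjusted p = 0.0223), or 0.901-fold. That call depended on the scaling and on single arrays: the change was 0.01 with the values as deposited (limma adjusted p = 0.911) and -0.13 after quantile normalization (limma adjusted p = 0.0744), and without replicate 2 or replicate 3 of the 0.25 nM group the adjusted p was 0.0657 or 0.0550. The 0.5 nM cells lay above the 0.25 nM cells by 0.20 ± 0.045 (SE; limma adjusted p = 0.00678). At the level of groups TNRC6B lay at -0.05 ± 0.15 (SE) and did not pass (limma adjusted p = 0.991).

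**Figure D1:**
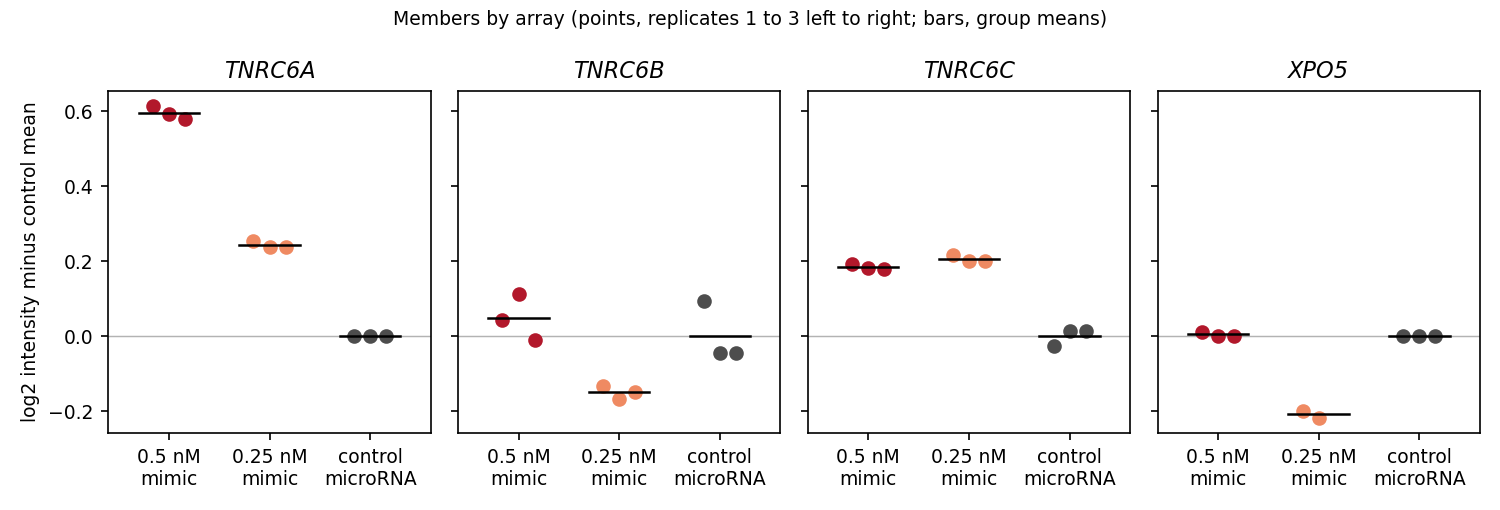
Log2 intensity of TNRC6A, TNRC6B, TNRC6C and XPO5 on each array, minus the mean of the control arrays, after arrays were shifted to one median. Points are arrays of the 0.5 nM mimic, the 0.25 nM mimic and the control microRNA, and bars are group means. TNRC6A and TNRC6C lie above control at both doses, TNRC6B at 0.5 nM overlaps control, and XPO5 lies below control at 0.25 nM on the 2 arrays used.

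A difference between paralogues on the same array does not depend on any shift between arrays, so it was computed from the deposited values. TNRC6A minus TNRC6B was -0.47 ± 0.059 at 0.5 nM and -0.62 ± 0.011 at 0.25 nM, against -1.01 ± 0.080 in control (SD, n = 3 each). It thus lay 0.55 above control at 0.5 nM and 0.39 above it at 0.25 nM. TNRC6C minus TNRC6B lay 0.14 above control at 0.5 nM and 0.36 above it at 0.25 nM. TNRC6A minus TNRC6C was 0.25 ± 0.011 at 0.5 nM, 0.41 above control, while at 0.25 nM it was -0.12 on every array, 0.04 above the control mean of -0.16 ± 0.024 (SD, n = 3). These differences show unequal change of the paralogues between these arrays. They do not show which of a pair moved, and the tie of values within groups applies to them too. How often other pairs of genes differ as much was not computed, so these sizes do not set the paralogues apart.

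XPO5, the export receptor for hairpin precursors, was close to control at 0.5 nM and lower at 0.25 nM. Its level was 9.21, 9.20 and 9.20 at 0.5 nM and 8.9999 and 8.9831 on 2 arrays at 0.25 nM, against 9.20 on each of the 3 control arrays. Replicate 3 of the 0.25 nM group was left out for this gene, because its deposited value, 9.63274051, is that of replicates 1 and 2, 9.063274051, without the zero after the point. At 0.5 nM the change was 0.004, with a 95% interval from -0.017 to 0.026 (limma adjusted p = 0.697). At 0.25 nM it was -0.21 ± 0.0098 (SE, n = 2 against 3; limma adjusted p = 3.97e-06), or 0.865-fold. With the short value kept the change at 0.25 nM was -0.03 and did not pass (limma adjusted p = 0.875). The difference between the doses, 0.21 ± 0.0098 (SE), was also lost with it, at 0.03 (limma adjusted p = 0.836). With the values as deposited but the short ones left out, XPO5 lay above control at 0.5 nM by 0.09 (limma adjusted p = 1.56e-09), and its change at 0.25 nM shrank to -0.06 but passed (limma adjusted p = 4.33e-08). The deposited values tied exactly within every group once the short value was left out, so the SE comes from the shift and from other genes. At the level of groups the change was -0.10 ± 0.14 (SE; limma adjusted p = 0.972).

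Counted together, 2 of the 4 members (TNRC6A and TNRC6C) passed as higher at 0.5 nM and 0 as lower, where 33.2% of all genes passed as higher and 30.1% as lower. At 0.25 nM the same 2 members passed as higher and 2 (TNRC6B and XPO5) as lower, where 30.3% of all genes passed as higher and 33.9% as lower. Between the doses 3 of 4 passed, all higher at 0.5 nM. Beside them 62.2% of all 14812 genes passed in either direction, 5182 as higher at 0.5 nM and 4028 as lower. With the values as deposited all 4 members passed between the doses, TNRC6C as lower by -0.09 (limma adjusted p = 0.000359). For both doses together 3 of 4 passed the 9-array model, beside 64.2% of all genes. In the group-level test 0 of 4 passed, beside 0.128% of all genes. Of the 4 only TNRC6A had an unadjusted limma p under 0.05 there, as did 972 of all 14812 genes. With so large a share of all genes passing the 9-array model, a pass there does not set a member apart. The scaling also set the split of all genes: with the values as deposited 6665 were higher and 2973 lower at 0.5 nM, against 4917 and 4455 with arrays shifted. At 0.25 nM the split was 7517 and 2529 as deposited, against 4486 and 5025 shifted. Between the doses it was 3961 and 5320 as deposited, against 5182 and 4028 shifted.

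**Figure D2:**
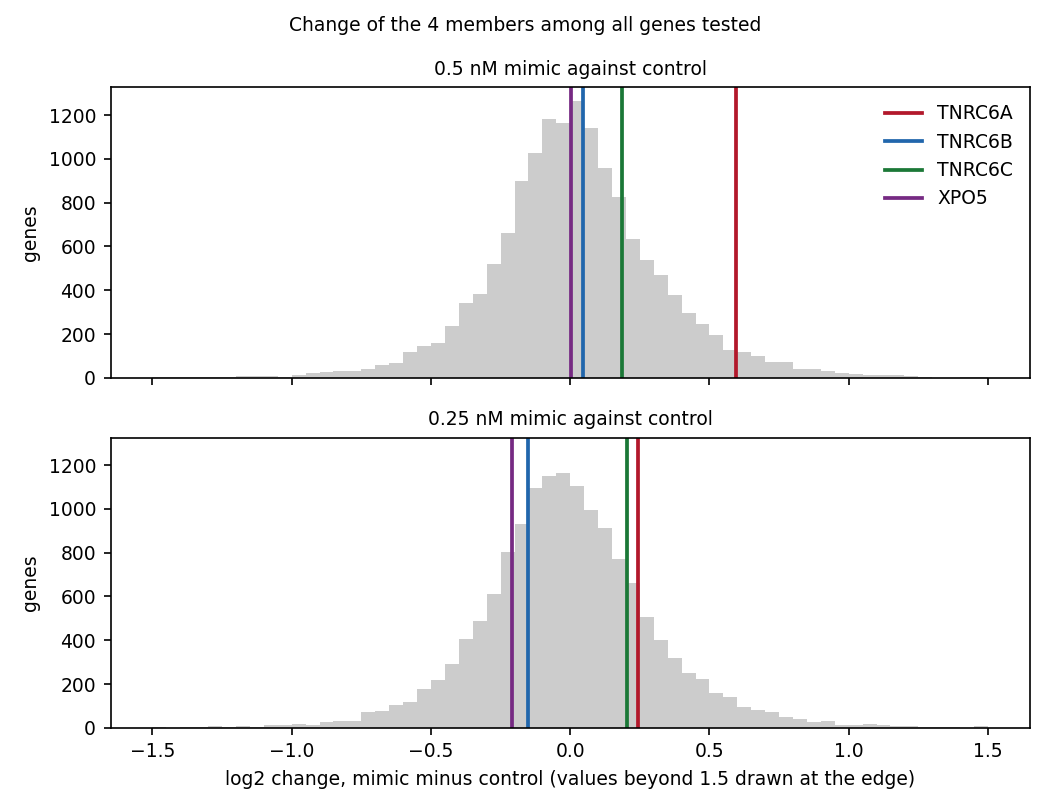
Histograms of the log2 change of all 14812 genes, mimic minus control, at 0.5 nM (top) and 0.25 nM (bottom), with vertical lines for the 4 members. TNRC6A at 0.5 nM lies in the upper tail, at 0.60, and the other lines lie within the bulk of genes, between -0.21 and 0.24.

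The spread of changes over all genes puts the members' sizes in scale. Its SD was 0.308 for 0.5 nM against control, 0.314 for 0.25 nM against control and 0.305 between the doses. The change of TNRC6A at 0.5 nM was thus close to 2 SDs of all genes, and 6.3% of genes moved as far in either direction. At 0.25 nM the members' changes were all within 1 SD. The doses share their control arrays, so their values stand side by side here and no agreement between them was computed.

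Promoter sequences of the TNRC6 genes are shown as background, and a link between them and the changes above was not tested. Each window runs from 250 bases before to 50 bases after a RefSeq start on GRCh38.p14, on the gene's own strand, and capitals mark matches on either strand to the GC box GGGCGG, the CCAAT box, the TATA box (written TATAAA), the cyclic AMP response element (written TGACGTCA) or the E-box (written CACGTG). Matches to different motifs may overlap. TNRC6C has 4 such windows, and the one richest in CpG is printed.
TNRC6A, chr16:24729401-24729700, plus strand: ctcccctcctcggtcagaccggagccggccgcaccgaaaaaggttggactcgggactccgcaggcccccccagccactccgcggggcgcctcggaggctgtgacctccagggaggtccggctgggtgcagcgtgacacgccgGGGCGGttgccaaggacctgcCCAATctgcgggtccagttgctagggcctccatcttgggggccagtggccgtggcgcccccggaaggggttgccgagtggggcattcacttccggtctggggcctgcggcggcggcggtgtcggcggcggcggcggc
TNRC6B, chr22:40044584-40044883, plus strand: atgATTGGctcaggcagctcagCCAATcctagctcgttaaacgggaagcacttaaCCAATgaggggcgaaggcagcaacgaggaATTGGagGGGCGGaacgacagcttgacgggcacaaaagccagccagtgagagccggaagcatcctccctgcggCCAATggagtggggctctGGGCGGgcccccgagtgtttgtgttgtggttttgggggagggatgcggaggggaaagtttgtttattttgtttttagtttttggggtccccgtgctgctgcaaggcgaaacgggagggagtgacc
TNRC6C, chr17:77958453-77958752, plus strand: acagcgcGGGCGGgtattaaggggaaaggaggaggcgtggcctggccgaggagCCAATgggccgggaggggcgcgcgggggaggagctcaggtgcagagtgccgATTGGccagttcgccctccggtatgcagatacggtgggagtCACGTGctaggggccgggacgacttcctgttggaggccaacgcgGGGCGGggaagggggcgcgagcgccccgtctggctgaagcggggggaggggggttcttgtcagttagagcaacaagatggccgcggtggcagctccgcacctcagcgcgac
The TNRC6A window is 73.7% G or C with 31 CpG, the printed TNRC6C window 69.3% with 29 and the TNRC6B window 57.3% with 15, beside medians of 58.7% and 14 over 35116 windows. TNRC6B holds 5 matches to CCAAT, TNRC6A 1 and the printed TNRC6C window 2, where 34.6% of all windows hold at least 1. GGGCGG occurs once in TNRC6A and 2 times in each of the other printed windows, and in 45.0% of all windows. The printed TNRC6C window alone among them holds CACGTG, found in 7.3% of all windows. None of the printed windows holds TATAAA (11.5% of all windows) or TGACGTCA (1.8%). The array row of TNRC6C cannot be tied to 1 of its 4 starts, and no readout of promoter activity was used here.

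Genes whose pattern over the arrays was most like that of a member were sought among genes above the median level with no missing value. Since groups hold tied values, the likeness rests on little more than 3 group means, and very high correlations are common. For TNRC6A the highest Pearson r over 9 arrays were with MNS1 (0.9998), TOX4 (0.9997) and CHMP4A (0.9996), and 29 of 5960 genes reached 0.99. For TNRC6C they were with ZSCAN2 (0.9992), TCTN1 (0.9936) and PRRC1 (0.9927), with 19 genes at 0.99 or above. For XPO5, over 8 arrays, ZNF7, KLK8 and WARS1 led at 0.9995 or above, and 46 of 5961 genes reached 0.99. TNRC6B, whose arrays varied more within groups, had BLTP2 at 0.9463, TRAPPC6B at 0.9439 and CLK4 at 0.9394, and 0 genes reached 0.99.

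Around the members, 38 of 66 other listed genes of the pathway were measured. At 0.5 nM 6 of the 38 passed the 9-array model as higher and 11 as lower, and at 0.25 nM 10 as higher and 11 as lower, with medians of -0.003 and -0.048 beside 0.010 and -0.020 over all genes. Over all genes 33.2% passed as higher and 30.1% as lower at 0.5 nM, and 30.3% as higher and 33.9% as lower at 0.25 nM. Each list below holds 9 measured genes or fewer, and its counts are a description beside those shares with no test of a difference from them. In the group-level test 0 of the 38 passed.

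The steps nearest to the TNRC6 scaffold are deadenylation and decapping. Of 4 measured deadenylation genes 1 was higher and 0 lower at 0.5 nM, and 1 was higher and 1 lower at 0.25 nM, beside 33.2% and 30.1% of all genes at 0.5 nM and 30.3% and 33.9% at 0.25 nM. PAN3, the subunit that TNRC6 proteins contact, lay at 0.001 at 0.5 nM and 0.18 at 0.25 nM (limma adjusted p = 0.891 and 8.52e-07), and with the values as deposited it passed at 0.5 nM too, at 0.09 (limma adjusted p = 4.62e-11). CNOT11, a subunit of CCR4-NOT, lay at 0.04 and -0.21 (limma adjusted p = 0.00556 and 3.42e-07). At 0.5 nM its call was lost after quantile normalization (limma adjusted p = 0.0837) and with the short values kept (limma adjusted p = 0.185), and at 0.25 nM its change shrank to -0.06 with the values as deposited (limma adjusted p = 7.71e-10). Of 9 decapping and decay genes 1 was higher and 3 lower at 0.5 nM, and 1 was higher and 4 lower at 0.25 nM, beside the same shares of all genes. The XRN1 exonuclease, which degrades decapped mRNA, was the 1 higher at both doses, at 0.06 and 0.12 (limma adjusted p = 0.00124 and 6.51e-05), and with the values as deposited at 0.15 and 0.27 (limma adjusted p = 1.47e-10 and 1.22e-11). The short value of XRN1 on 0.25 nM replicate 3 was left out of these. For PAN3, CNOT11 and XRN1 the values used differed within each group only by the shift, so their errors come from the shift and from other genes.

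DCP2, the catalytic subunit of the decapping enzyme, had the largest change of the 42 members and other pathway genes at 0.25 nM, and the largest fall among them at 0.5 nM. Its level was 8.06, 8.06 and 7.86 at 0.5 nM and 7.55, 7.53 and 7.53 at 0.25 nM, against 8.51 on each of the 3 control arrays. The control values tied exactly, and those at 0.25 nM differed only by the shift. Every mimic array lay below control, and the 0.25 nM arrays lay lowest. How many of all genes separate in this way was not computed. DCP2 fell by 0.52 ± 0.051 (SE, n = 3 each; limma adjusted p = 7.11e-05) at 0.5 nM and by 0.97 ± 0.051 (SE, n = 3 each; limma adjusted p = 1.83e-06) at 0.25 nM. At the level of groups its change of -0.74 lay just outside the threshold (limma adjusted p = 0.0541). It passed in 5 of 15 other settings of that test, and the adjusted p ran from 0.00729 with the short values kept to 0.836 with no intensity trend. It was 0.763 without 0.25 nM replicate 1, 0.414 without 0.25 nM replicate 3 and 0.561 with the values as deposited.

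**Figure D3:**
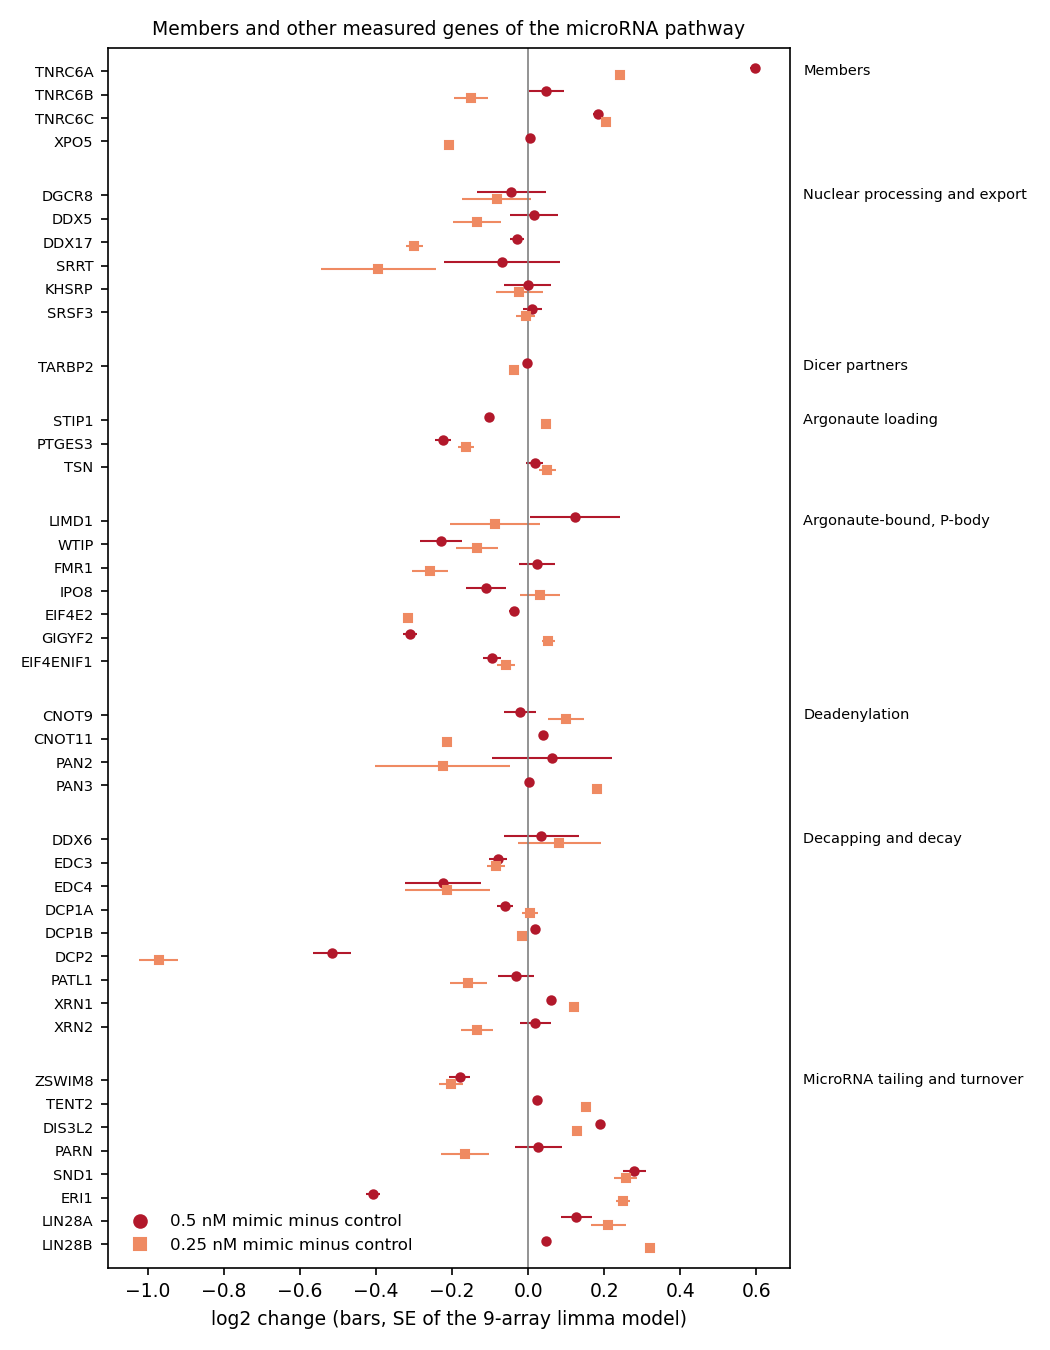
Log2 change of the 4 members and of 38 other measured genes of the microRNA pathway, by list, for the 0.5 nM mimic (circles) and the 0.25 nM mimic (squares), each minus control, with bars for the SE of the 9-array limma model. DCP2 lies furthest left, at -0.52 and -0.97, and TNRC6A furthest right, at 0.60 for 0.5 nM.

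Of 7 measured genes for proteins that bind Argonaute or sit in P-bodies, 0 were higher and 4 lower at 0.5 nM, and 1 was higher and 2 lower at 0.25 nM, where 33.2% of all genes passed as higher and 30.1% as lower at 0.5 nM and 30.3% and 33.9% at 0.25 nM. WTIP, a LIM-domain partner of Argonaute, lay at -0.23 and -0.13 (limma adjusted p = 0.00804 and 0.0670). With the values as deposited it lost the call at 0.5 nM, at -0.14 (limma adjusted p = 0.0707), and without control replicate 1 it passed at 0.25 nM, at -0.20 (limma adjusted p = 0.000277). Its relative LIMD1 lay at 0.12 and -0.09 and did not pass at either dose (limma adjusted p = 0.398 and 0.551), but did at 0.5 nM in the fit blocked on replicate number (limma adjusted p = 0.0368). Of 3 genes of Argonaute loading, 0 were higher and 2 lower at 0.5 nM, and 1 was higher and 1 lower at 0.25 nM, beside the same shares of all genes. PTGES3, the HSP90 cochaperone p23, lay at -0.22 and -0.16 (limma adjusted p = 6.34e-05 and 0.000366), although the mean of all its rows gave 0.02 and 0.60, neither of which passed. On 0.25 nM replicate 3 such a mean leaves out any row with a short value, so it can rest on fewer rows there. At 0.25 nM the brightest row of PTGES3 lay at -0.01 with the values as deposited and did not pass (limma adjusted p = 0.801). TSN, a subunit of the C3PO nuclease, lay at 0.02 and 0.05 (limma adjusted p = 0.551 and 0.0933), but passed at both doses with the values as deposited, at 0.11 and 0.21 (limma adjusted p = 0.0131 and 0.000512). At 0.25 nM it also passed after quantile normalization and without 0.25 nM replicate 1 (limma adjusted p = 0.0107 and 0.000292).

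Of 6 genes of nuclear processing and export 0 passed by limma at 0.5 nM, and 0 were higher and 1 lower at 0.25 nM, where 33.2% of all genes passed as higher and 30.1% as lower at 0.5 nM and 30.3% and 33.9% at 0.25 nM. SRRT, which links the cap-binding complex to primary transcripts, lay at -0.07 and -0.39 (limma adjusted p = 0.722 and 0.0552), and at 0.25 nM it passed in the fit blocked on replicate number (limma adjusted p = 0.00175), with the short values kept (limma adjusted p = 0.048) and without control replicate 1 (limma adjusted p = 0.019). SRSF3, a splicing factor that helps place the cut in primary transcripts, lay at 0.01 and -0.01 (limma adjusted p = 0.734 and 0.857), and with the values as deposited it passed as higher at 0.10 and 0.15 (limma adjusted p = 0.0218 and 0.00351). TARBP2, the DICER1 partner and the 1 of 3 such genes measured, lay at -0.004 and -0.04 (limma adjusted p = 0.747 and 0.0161), and with the values as deposited at 0.09 and 0.12 (limma adjusted p = 0.000929 and 0.000155). Its call at 0.25 nM was lost after quantile normalization (limma adjusted p = 0.874) and with the short values kept (limma adjusted p = 0.157).

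Of 8 measured genes of microRNA tailing and turnover, 4 were higher and 2 lower at 0.5 nM, and 6 were higher and 1 lower at 0.25 nM, where 33.2% of all genes passed as higher and 30.1% as lower at 0.5 nM and 30.3% and 33.9% at 0.25 nM. SND1, a Tudor-domain nuclease, lay at 10.35, 10.39 and 10.37 at 0.5 nM and at 10.33, 10.36 and 10.36 at 0.25 nM, against 10.03, 10.10 and 10.15 in control. All mimic arrays lay above all control arrays, a separation whose share over all genes was not computed. The changes were 0.28 and 0.26 (limma adjusted p = 0.000121 and 0.000192), and the group-level test did not pass (limma adjusted p = 0.666). ZSWIM8, a ubiquitin ligase adaptor that triggers Argonaute decay on certain targets, lay at -0.18 and -0.20 (limma adjusted p = 0.00167 and 0.00160), with its short value on 0.25 nM replicate 3 left out. With the short values kept it passed at neither dose (limma adjusted p = 0.138 and 0.541), and with the values as deposited it lost the call at 0.25 nM, at -0.05 (limma adjusted p = 0.272). Of the genes higher at 0.25 nM, LIN28A and LIN28B, which bind let-7 precursors, were dim, with mean levels of 4.59 and 3.50 beside a median of 6.25 over all genes.

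**Figure D4:**
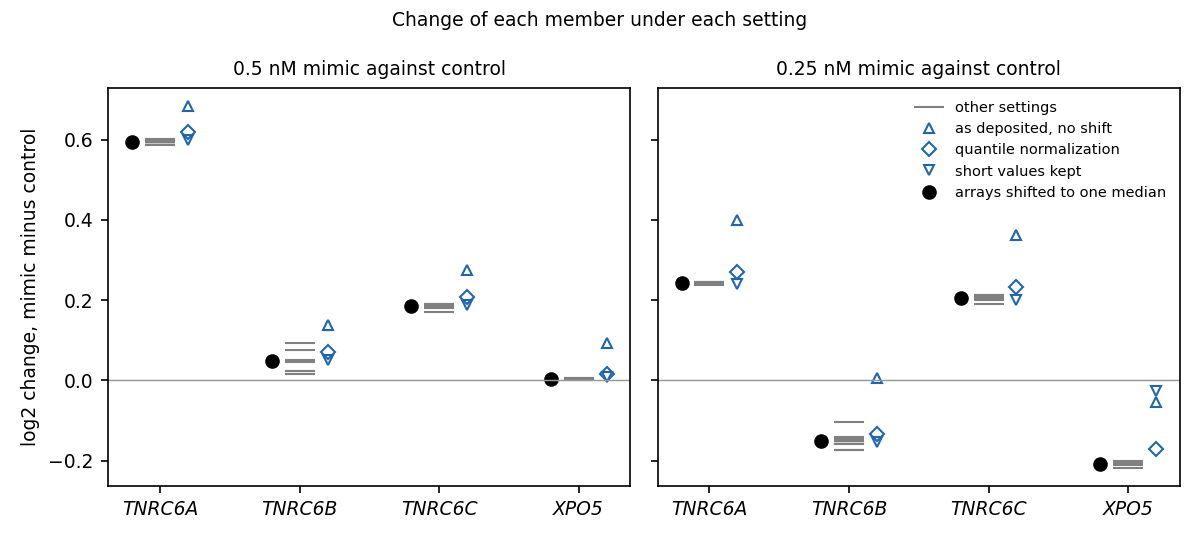
Log2 change of each member against control at 0.5 nM (left) and 0.25 nM (right) under the setting used in the text (filled circles) and under the others. With the values as deposited every member lies higher, TNRC6B at 0.25 nM moves to 0.01, and XPO5 at 0.25 nM moves to -0.03 when the short values are kept.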

How the data were processed

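Expression was measured on 9 whole-transcript arrays in 3 groups of 3. The deposited values are log2 intensities, which the authors made with RMA; oligo and affy are also named, per the submitters' processing notes. The sources used here give no version, step order or genome build. The table holds 44629 rows, of which 15835 have 1 gene symbol in the platform annotation, and the brightest row per symbol left 14812 genes. In 0.25 nM replicate 3 the first decimal is never 0, while every other column has 4178 to 4774 such values, so values of fewer than 10 digits there were left out (19.1% of genes). Arrays were shifted to one median over genes with no missing value.

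The 9-array model was limma 3.58.1 in R 4.3.3 with a mean per group, two-sided, Benjamini-Hochberg adjusted over all genes at 0.05. The group-level test was limma with an intensity trend on the 3 group means, with 35.9 prior degrees of freedom. Both were run on simulated data without tied values, which cannot show whether the error of the 9-array model suits the tied values here. Intervals are 95%. Precision is limited by 3 arrays a group, and the values that tie within groups limit it further.

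Members and lists were chosen with earlier results of these data known. Named genes are the members and, per wider list, the genes of highest and lowest mean change (LIN28A and LIN28B were named after their values were seen). The search for like genes had been set for AGO2 and DICER1, which have no row, and was run on the 4 members instead. Deviations of same-numbered arrays of different groups correlated at r from 0.136 to 0.589 over 9 pairs, and those of differently numbered arrays at -0.465 to 0.359 over 18 pairs. Every pair of a replicate 1 with a replicate 2 or 3 was negative (-0.465 to -0.203). Pairs of a replicate 2 with a replicate 3 were all positive (0.165 to 0.359). Replicate 1 thus deviated from replicates 2 and 3 in a like way across groups, and the 9-array model has no term for it. This pattern comes from the values and not from the labels, and the replicate number was also fitted as a block. Other settings tried were no shift, quantile normalization, short values kept, the mean of all rows, genes above the median level, an intensity trend or its absence, robust eBayes and leaving out each array.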

Additional observations from a re-analysis of the deposited data

Results flagged for a closer look

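By limma, for 3 members the change against control differed between the doses in a test of that difference. TNRC6A was 0.35 higher at 0.5 nM than at 0.25 nM (limma adjusted p = 9.19e-08, higher on 3 of 3 arrays). XPO5 was 0.21 higher (limma adjusted p = 3.62e-06, 3 arrays against 2), and TNRC6B was 0.20 higher (limma adjusted p = 0.00678, 3 against 3 arrays). Between the doses 62.2% of all genes passed the same test in either direction, 5182 as higher at 0.5 nM and 4028 as lower.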

How the results depend on the processing

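With 20 results on the members and up to 17 other settings each, 321 of 332 values kept their side of the threshold and, where called, their direction, 6 lost a call, 3 gained one and 2 turned round. With the values as deposited TNRC6B at 0.25 nM turned to 0.0065 and XPO5 for both doses to 0.0195. Of 637 values of the other named genes 606 kept both, 8 lost a call, 16 gained one and 7 turned: with the values as deposited TARBP2 at 0.0853 (0.5 nM) and 0.1182 (0.25 nM) and SRSF3 at 0.1509, after quantile normalization TARBP2 at 0.0043, with the mean of all rows PTGES3 at 0.0169 and 0.6005, and SRSF3 at 0.25 nM from -0.0217 to 0.0261 with 1 array left out (0.0261 without 0.25 nM replicate 1). Restricting the test to genes above the median level, which leaves fewer genes, gave 3787 calls at 0.5 nM, 3944 at 0.25 nM, 3645 between the doses and 3903 for both doses, from 9372, 9511, 9210 and 9508. With no shift all 4 members passed at 0.5 nM in place of 2. The group-level test called 19 genes (972 at an unadjusted p under 0.05), 0 with the values as deposited, after quantile normalization or with no intensity trend (1205, 840 and 866 unadjusted), 35 with the short values kept and 39 with the mean of all rows. Leaving out 1 array gave 0 to 47 genes there: 0 without 0.25 nM replicate 1 or 3, 8 without 0.25 nM replicate 2, 7, 42 and 47 without 0.5 nM replicates 1, 2 and 3, and 32 without control replicate 1. It called 0 members in each of its 15 other settings. What moved these counts was not tested. With the replicate block the counts were 9725, 9982, 9688 and 9930 genes, and no call of a member changed. Among the other named genes SRRT at 0.25 nM and LIMD1 at 0.5 nM gained a call with it.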
